A study of Mus musculus with 6 samples.

Results

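Proteins of the BCL2 family decide whether the outer membrane of the mitochondrion stays intact, and so whether a cell survives or dies by apoptosis. Survival members such as BCL2, BCL-XL, MCL1 and A1 hold the pore-forming members BAX and BAK in check, and BH3-only members such as BIM and BID relieve that hold or activate the pore formers. In osteoclasts, the short-lived multinucleated cells that resorb bone, M-CSF and RANKL sustain survival in part through this family, and BIM is known for driving the death of osteoclasts deprived of these cytokines.

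The 10 genes described here encode 6 survival proteins (*Bcl2a1b*, *Bcl2a1a*, *Bcl2a1d*, *Bcl2*, *Bcl2l1* and *Mcl1*), both pore formers (*Bax* and *Bak1*) and 2 BH3-only proteins (*Bcl2l11* and *Bid*). They are 10 of the 22601 genes in the deposited count table, and all 10 were among the 13483 genes that passed a filter on low counts. The set was chosen by family membership and by the measured values of *Bcl2a1b*, whose *Slc37a2* KO libraries did not overlap its WT libraries. The difference between genotypes is therefore given for these genes as a description, and nothing is read from tests of them.

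RNAseq counted RNA fragments per gene in 3 WT and 3 *Slc37a2* KO libraries. *Slc37a2* KO mice were homozygous for the tm2a(KOMP)Wtsi gene-trap allele, derived from 1 embryonic stem cell clone and kept on the C57BL/6N background, and controls were WT littermates. Per the sample labels, bone marrow macrophages (BMMs) grown in 2 ng/ml M-CSF were turned into osteoclasts with RANKL at 10 ng/ml, beside M-CSF at 2 ng/ml, for 5 days. For growing these cells before RANKL, the methods of the study give a higher M-CSF concentration. The results section of the study likewise names osteoclasts as the cells compared by RNAseq, while its methods describe RNA from whole femurs and tibias, so the sources differ on the material. Every column heading gives the letter F, an age of 11 weeks and an animal number, by which libraries are named here. The methods of the study mention mice of both sexes for RNAseq, and the headings do not explain the letter. Library totals were 39250356 counts in WT K090, 27552183 in WT L080 and 31396766 in WT L082. They were 29279260 counts in *Slc37a2* KO K089, 42522292 in L078 and 29663713 in L081. Levels below are CPM (counts scaled to a common library total) after TMM scaling, which corrects for differences in library composition. They are listed in this order of libraries.

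*Slc37a2* itself, which encodes a transporter of the SLC37 family, had 1857, 2151 and 2440 CPM in WT and 45.3, 32.1 and 36.9 CPM in *Slc37a2* KO libraries. Every library matched its genotype. The log2 fold change was −5.82 (SE 0.20, adjusted p = 0.000707, edgeR quasi-likelihood test), higher in 3 of 3 WT libraries. This was 1 of 13483 tested genes (0.00742%) with an adjusted p below 0.05. Osteoclast genes were abundant, with all 15 of a list of osteoclast markers detected and *Mmp9*, a secreted matrix protease, as its most abundant gene at a mean of 23835 CPM.

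Per length of merged exons, *Mcl1* was the most abundant member of the set, and the ranks below are within the set only. On the scale of CPM per kilobase of merged exons, its level was 260 ± 9.60 in WT (SD, n = 3) and 299.9 ± 34.5 in *Slc37a2* KO (SD, n = 3). *Bax*, *Bak1* and *Bcl2a1b* followed at WT means of 51.1, 44.9 and 44.2 CPM per kilobase. The lowest *Mcl1* value of any library, 249.7 CPM per kilobase, lay above the highest *Bax* value of 53.7, whereas the values of *Bax*, *Bak1* and *Bcl2a1b* overlapped. *Bcl2l11* came next at a WT mean of 17.0 CPM per kilobase, apart from its neighbours on both sides. *Bcl2a1a* (8.67) and *Bid* (7.29) overlapped, and *Bcl2l1* (5.34), *Bcl2a1d* (1.81) and *Bcl2* (0.506) were each below every library of the gene ranked above them. On this scale, the order among survival genes of the set was thus *Mcl1*, *Bcl2a1b*, *Bcl2a1a*, *Bcl2l1*, *Bcl2a1d* and *Bcl2*. It was the same for the WT and the *Slc37a2* KO means. The lower ranks depend on merged exon length, which was 4586 bases for *Bcl2l1*, 819 for *Bcl2a1a*, 9157 for *Bcl2* and 863 for *Bcl2a1d*. In CPM, WT means were higher for *Bcl2l1* (24.5) than *Bcl2a1a* (7.10), and for *Bcl2* (4.63) than *Bcl2a1d* (1.56). The split of reads among *Bcl2a1* copies is also uncertain, as given below.

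**Figure D1:**
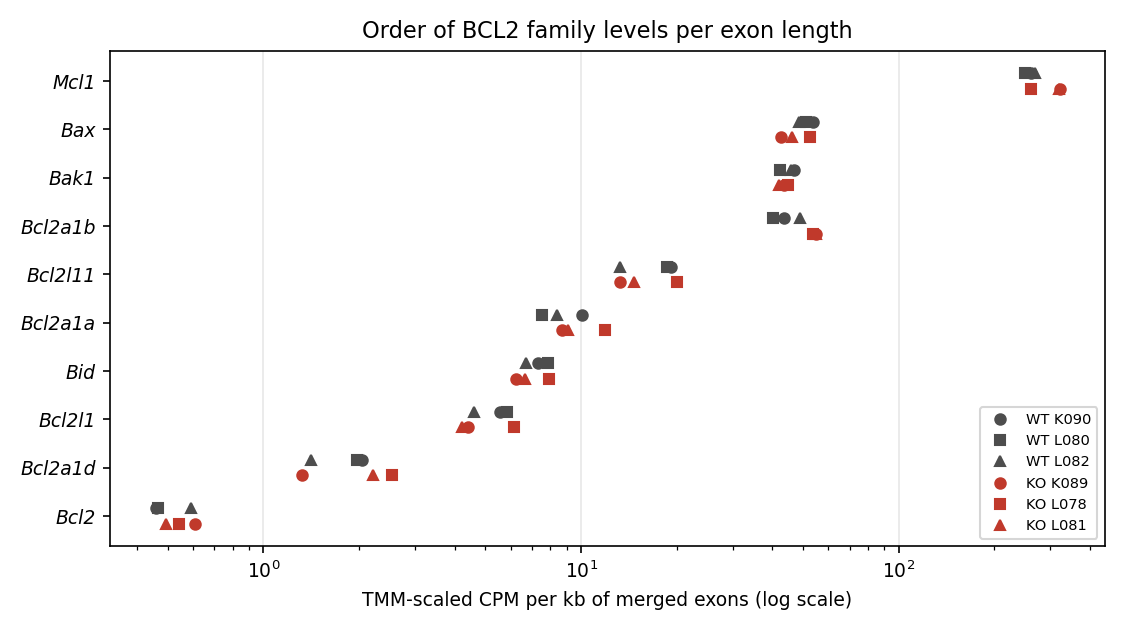
Levels of the 10 BCL2 family genes in each of the 6 libraries, in TMM-scaled CPM per kilobase of merged exons on a log axis, with genes ordered by their WT mean. *Mcl1* lies above all other members in every library (249.7 to 321), and *Bcl2* lowest (0.458 to 0.609).

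*Bcl2a1b* encodes A1, a short-lived survival protein of myeloid cells and lymphocytes whose gene is known as a target of NF-κB. Its level was 35.6, 32.8 and 40.0 CPM in WT libraries, from 1452, 929 and 1247 counts. It was 44.7, 43.8 and 44.9 CPM in *Slc37a2* KO libraries, from 1218, 1975 and 1270 counts. All 3 *Slc37a2* KO libraries lay within a narrow band above the 3 WT libraries, which were more spread. The means were 36.1 ± 3.63 CPM in WT and 44.5 ± 0.568 CPM in *Slc37a2* KO (SD, n = 3 each), a ratio of 1.23 and a log2 fold change of 0.30 (SE 0.08). The lowest *Slc37a2* KO value was 1.09 times the highest WT value.

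The next nearest member to such a separation was *Mcl1*, whose lowest *Slc37a2* KO value was 0.968 times its highest WT value. *Bcl2a1b* was the 1 member of 10 without overlap with *Slc37a2* KO higher, beside 202 of all 13483 tested genes (1.5%). No member (0 of 10) had all *Slc37a2* KO libraries below WT, beside 379 tested genes (2.81%). Since this contrast chose the members, nothing is read from these counts.

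*Bcl2a1b* has near-identical copies, among which reads can be misassigned. On GRCm38, *Bcl2a1d* (chr9:88723285-88731914, minus strand), *Bcl2a1a* (chr9:88956900-88962419, plus strand) and *Bcl2a1b* (chr9:89199209-89207827, plus strand) lie within 0.485 Mb of chromosome 9. *Slc37a2* is on the same chromosome, 51.5 Mb away from *Bcl2a1d*. Each copy has 2 exons and a coding sequence of 516 bases. *Bcl2a1b* and *Bcl2a1d* share 98.8% of coding bases, *Bcl2a1a* and *Bcl2a1d* 98.6%, and *Bcl2a1a* and *Bcl2a1b* 97.9%. Over the 3 copies 12 coding positions differ, of which 6 are particular to *Bcl2a1a*, 5 to *Bcl2a1b* and 1 to *Bcl2a1d*, and the longest stretch without any difference is 217 bases.

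The first 90 coding bases, in the first coding exon, hold the most differences of any window of that length and show how little separates reads of these genes. Capitals mark the 6 positions that differ between copies, and each is written along its coding strand from GRCm38: *Bcl2a1b* from chr9:89199360-89199449 (plus), *Bcl2a1a* from chr9:88957051-88957140 (plus) and *Bcl2a1d* from chr9:88731630-88731719 (minus).
Bcl2a1b: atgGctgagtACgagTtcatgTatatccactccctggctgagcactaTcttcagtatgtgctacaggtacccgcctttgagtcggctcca
Bcl2a1a: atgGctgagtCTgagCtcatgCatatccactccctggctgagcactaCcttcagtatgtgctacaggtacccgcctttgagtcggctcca
Bcl2a1d: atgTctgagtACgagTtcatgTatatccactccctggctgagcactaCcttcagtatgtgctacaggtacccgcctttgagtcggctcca

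Windows of transcript sequence give the share of each gene that a read could place. At 100 bases, 68.9% of *Bcl2a1b* windows occurred in no other *Bcl2a1* copy, against 56.5% for *Bcl2a1a* and 45.3% for *Bcl2a1d*. At 50 bases these shares were 42.4%, 31.0% and 20.5%. *Bcl2a1b* also shares 401 bases (49.1%) of its exons with *Gm29094*, a readthrough gene on the same strand. No deposited counts were listed under that symbol. When windows shared with *Gm29094* were also set aside, 43.2% of *Bcl2a1b* windows of 100 bases were left. The sources used here give neither the read length nor the treatment of reads with several matches, so the split of counts between these copies is uncertain.

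*Bcl2a1a*, which encodes a closely similar A1 protein, had 8.26, 6.15 and 6.90 CPM in WT and 7.12, 9.72 and 7.46 CPM in *Slc37a2* KO libraries. Its genotypes overlapped, with the highest value in *Slc37a2* KO L078 and a log2 fold change of 0.19 (SE 0.18), which was 0.035 without L078 and 0.31 without WT K090. *Bcl2a1d*, the least abundant of these copies, had 1.76, 1.70 and 1.22 CPM in WT and 1.14, 2.2 and 1.91 CPM in *Slc37a2* KO libraries. It too overlapped (log2 fold change 0.17, SE 0.30), and without L078 its log2 fold change turned to −0.035. The further copy *Bcl2a1c* had 9 counts over all 6 libraries and was not tested.

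Adding the counts of *Bcl2a1a*, *Bcl2a1b* and *Bcl2a1d* gives a level that does not depend on how reads were divided among these 3 genes, though it does not recover reads assigned elsewhere or left uncounted. The sum was 45.6, 40.7 and 48.1 CPM in WT and 53.0, 55.7 and 54.3 CPM in *Slc37a2* KO libraries. The 3 *Slc37a2* KO libraries lay above the 3 WT libraries, with a log2 fold change of 0.28 (SE 0.08). Because *Bcl2a1b* makes up most of the sum, this separation largely restates the values that chose the set. *Bcl2a1b* held between 78.0% and 84.4% of the summed counts in each library, *Bcl2a1a* between 13.4% and 18.1% and *Bcl2a1d* between 2.15% and 4.17%. The share of *Bcl2a1b* was lowest in WT K090 (78.0%) and *Slc37a2* KO L078 (78.6%) and highest in *Slc37a2* KO K089 (84.4%), so it overlapped between genotypes.

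The sequence before the start of these genes was also near identical. All 10 members have a RefSeq promoter window (GRCm38.p6, 250 bases before to 50 after the start), 13 windows in all because some have several starts. The letters GAGGAAGTG, a core recognised by the ETS factor PU.1 of myeloid cells, occurred on either strand in 3 of these windows, those of *Bcl2a1b*, *Bcl2a1a* and *Bcl2a1d*, and in 517 of 32851 windows of all genes (1.57%). TGANTCA, a pattern wider than the AP-1 motif (TGACTCA or TGAGTCA), occurred in the same 3 members and in 7.81% of all windows. Before GAGGAAGTG, the match in each of these 3 members was TGAATCA, with A where the AP-1 motif has C or G. That match is therefore not the AP-1 motif itself. GGANTTTCC, a form of the NF-κB motif, occurred in 0 members' windows and in 1.25% of all. CACGTG, the E-box bound by MiT-TFE factors among others, occurred in the window of *Bax* and in 7.15% of all.

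Stretches of 83 bases around the first of these motifs are shown for the copies because of that likeness, each along its gene's strand, with capitals marking TGANTCA and GAGGAAGTG. They come from chr9:89199081-89199163 (plus) for *Bcl2a1b*, chr9:88956772-88956854 (plus) for *Bcl2a1a* and chr9:88731916-88731998 (minus) for *Bcl2a1d*, upstream of the annotated genes.
Bcl2a1b: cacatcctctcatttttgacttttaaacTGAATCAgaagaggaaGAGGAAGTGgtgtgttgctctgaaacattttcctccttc
Bcl2a1a: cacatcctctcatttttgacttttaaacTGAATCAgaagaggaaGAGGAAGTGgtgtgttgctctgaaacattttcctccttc
Bcl2a1d: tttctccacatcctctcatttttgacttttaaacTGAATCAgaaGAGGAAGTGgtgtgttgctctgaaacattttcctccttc
All 83 bases were identical between *Bcl2a1b* and *Bcl2a1a*, and *Bcl2a1d* aligned to them with 77 identical bases, 0 mismatches and 12 gap positions. A match of letters describes these windows and was not tested as a binding site.

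*Mcl1* (chr3:95658788-95663176) encodes a survival protein with a rapid turnover. It had 890, 853 and 919 CPM in WT and 1096, 889 and 1090 CPM in *Slc37a2* KO libraries. K089 and L081 lay above every WT library, while L078 lay among them, so the genotypes overlapped. The log2 fold change was 0.21 (SE 0.11).

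*Bcl2l1* (chr2:152780668-152831728), which encodes the survival protein BCL-XL and its death-promoting short form, had 25.6, 26.8 and 21.1 CPM in WT and 20.3, 28.2 and 19.3 CPM in *Slc37a2* KO libraries. Both the highest and the lowest values were in *Slc37a2* KO, in L078 and L081 (log2 fold change −0.11, SE 0.17). Counts per gene do not separate its forms. *Bcl2* (chr1:106538178-106714274), the founding survival gene of the family, had 4.19, 4.28 and 5.42 CPM in WT and 5.58, 4.97 and 4.52 CPM in *Slc37a2* KO libraries. WT L082 lay among the *Slc37a2* KO libraries, and the log2 fold change was 0.12 (SE 0.17).

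Both pore formers overlapped between genotypes. *Bax* (chr7:45461697-45466898), whose protein moves from the cytosol to mitochondria on activation, had 84.7, 80.7 and 76.4 CPM in WT and 67.0, 82.9 and 72.4 CPM in *Slc37a2* KO libraries. L078 again lay within the WT range, with the other *Slc37a2* KO libraries below that range (log2 fold change −0.12, SE 0.09). Of the exon length of *Bax*, 12.2% overlaps *Gm45808* on the same strand, a symbol under which no deposited counts were listed. *Bak1* (chr17:27019810-27029009), whose protein resides on mitochondria, had 112, 102 and 109.8 CPM in WT and 105, 107 and 101 CPM in *Slc37a2* KO libraries. It was the steadiest member, with a highest library 1.11 times its lowest and a log2 fold change of −0.05 (SE 0.06). On the opposite strand, 25.5% of the exon length of *Bak1* overlaps *Ggnbp1*, which had 190 counts over all libraries beside 21447 for *Bak1*.

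*Bcl2l11* (chr2:128126038-128162547) encodes BIM, the BH3-only protein known for osteoclast death after cytokine withdrawal. It had 153.6, 149 and 107 CPM in WT and 106, 161 and 118 CPM in *Slc37a2* KO libraries. WT L082 lay with K089 and L081, and L078 lay with the other WT libraries, so the spread within each genotype exceeded the difference between their means. The log2 fold change was −0.09 (SE 0.20), and it turned to 0.0060 without WT K090 and to 0.051 without *Slc37a2* KO K089.

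*Bid* (chr6:120891930-120916853), whose protein links death receptors to mitochondria once cut by caspase 8, had 26.0, 27.8 and 23.8 CPM in WT and 22.1, 28.1 and 23.6 CPM in *Slc37a2* KO libraries. It showed the same order as *Bcl2l11* in that L078 was highest and K089 lowest, with a log2 fold change of −0.07 (SE 0.11). Exons of *Bid* overlap *Bcl2l13* on the opposite strand over 17.7% of their length, and *Bcl2l13* had 17193 counts beside 5126 for *Bid*. The sources used here do not say whether the counting used strand, so reads from this overlap cannot be told apart.

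**Figure D2:**
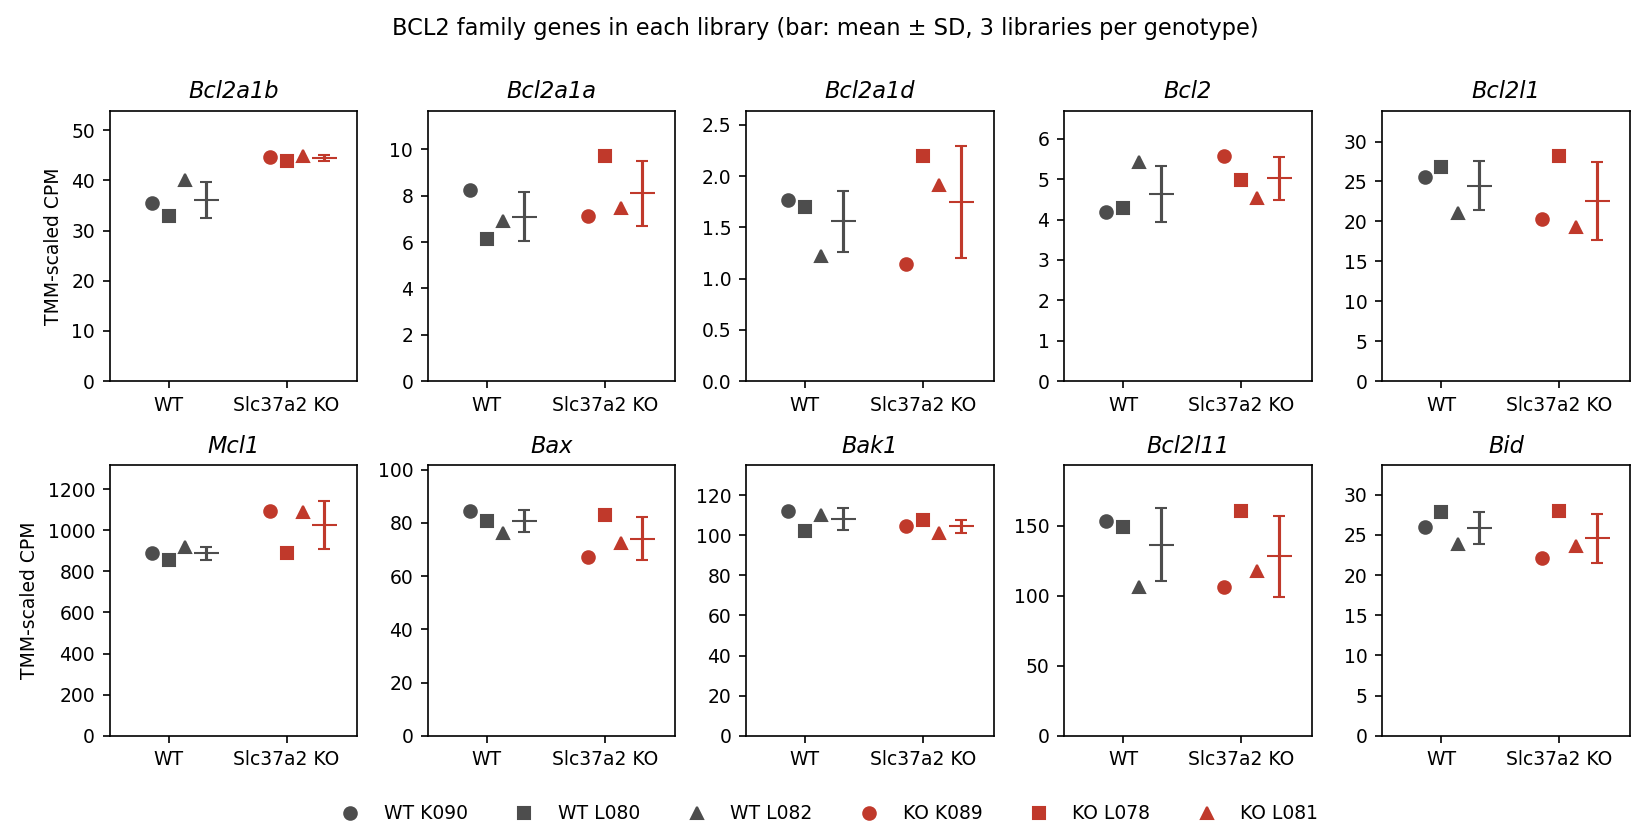
TMM-scaled CPM of the 10 BCL2 family genes in 3 WT (grey) and 3 *Slc37a2* KO (red) libraries, each marker 1 library, with mean ± SD beside them and axes starting at 0. *Bcl2a1b* is the 1 member whose genotypes do not overlap (32.8 to 40.0 CPM in WT, 43.8 to 44.9 CPM in *Slc37a2* KO).

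Over the 10 members, 5 had log2 fold changes above 0 and 5 below, with a median of 0.03, against a median of −0.02 and 43.8% above 0 over all tested genes. The 5 above 0 were survival genes, among them the *Bcl2a1* members, whose split of reads is uncertain, and *Bcl2l1* was the survival gene below 0. Nothing is read from this division by sign, since the values of *Bcl2a1b* helped choose the set. The signs of the 10 members held under DESeq2 and upper quartile scaling, but those of *Bcl2a1d*, *Bcl2l1*, *Bcl2l11* and *Bid* turned when single libraries were left out.

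Levels of several members moved together across libraries in a way that cut across genotype. *Bcl2l1*, *Bax*, *Bcl2l11* and *Bid* were each highest in WT K090, WT L080 and *Slc37a2* KO L078. Over the 6 libraries, Pearson correlations of log2 CPM were 0.95 between *Bcl2l1* and *Bid*, 0.93 between *Bcl2l1* and *Bcl2l11* and 0.93 between *Bcl2l11* and *Bid*. *Mcl1* ran opposite, at −0.90 with *Bax* and −0.86 with *Bcl2l1*. *Bcl2a1b* followed *Mcl1* more than any other member (0.75), and its correlation with *Bcl2a1a* was 0.43. These values describe 6 libraries, in which differences in depth and cell composition are shared by all genes of a library.

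Markers of macrophages and osteoclasts differed between the same libraries. The summed level of 10 macrophage genes was 8023, 7472 and 5108 CPM in WT and 5489, 7446 and 5577 CPM in *Slc37a2* KO libraries. All 10 were detected, and the most abundant, *Lyz2*, which encodes lysozyme, had 4288, 3561 and 1249 CPM in WT and 1021, 3765 and 1401 CPM in *Slc37a2* KO libraries. The summed level of the 15 osteoclast genes was lowest where macrophage genes were highest: 41868, 54701 and 62344 CPM in WT and 81372, 45425 and 72742 CPM in *Slc37a2* KO libraries. All 15 osteoclast genes had log2 fold changes above 0 and 7 of 10 macrophage genes below 0, with sums that overlapped between genotypes. In bulk RNA, fewer cells of a type and less RNA per cell cannot be told apart, and the part of cell composition in the levels of BCL2 family genes was not tested.

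**Figure D3:**
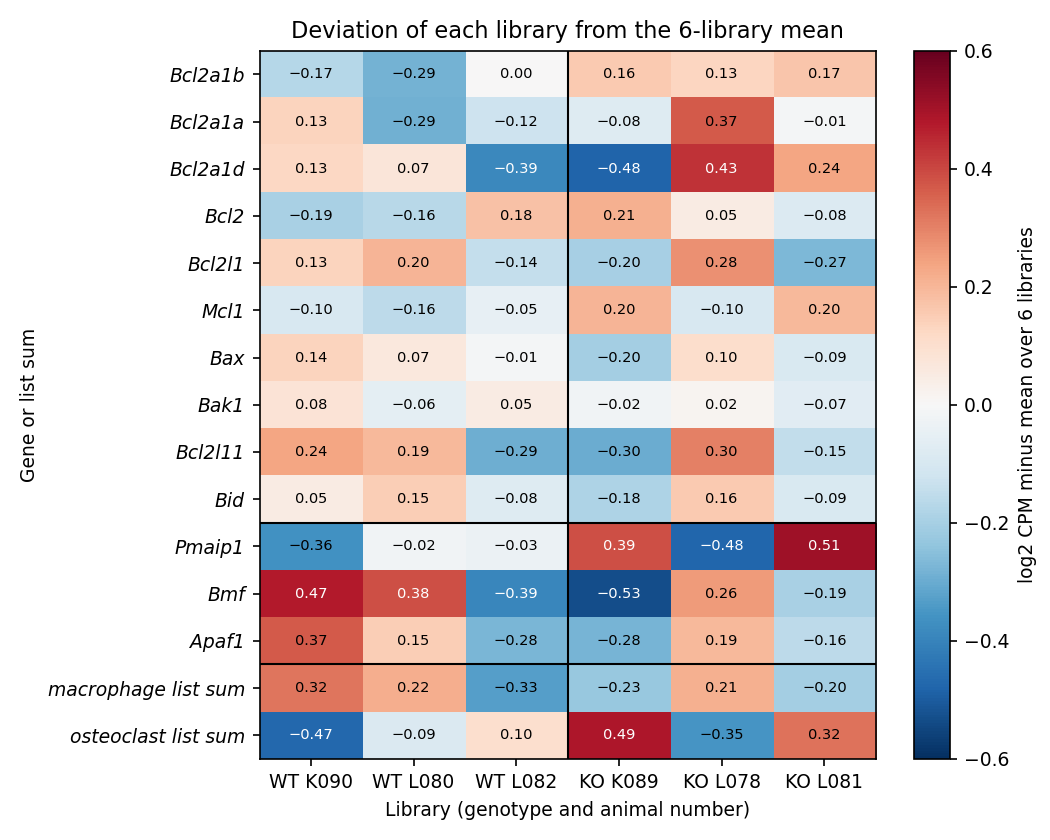
Difference of each library from the mean of 6 libraries in log2 CPM, for the 10 members, 3 other apoptosis genes (*Pmaip1*, *Bmf*, *Apaf1*) and the summed macrophage and osteoclast markers, with red above and blue below the mean. *Bcl2l11*, *Bid*, *Bcl2l1* and the macrophage sum are above their means in WT K090, WT L080 and *Slc37a2* KO L078, and *Bcl2a1b* is above its mean in all 3 *Slc37a2* KO libraries.

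Other marker lists also varied between libraries. All 12 interferon response genes were detected, with a summed level of 194, 99.2 and 27.3 CPM in WT and 18.7, 118 and 38.4 CPM in *Slc37a2* KO libraries and *Oasl2* as the most abundant. All 10 proliferation genes were detected, summing to 1102, 785 and 818 CPM in WT and 534, 1066 and 662 CPM in *Slc37a2* KO libraries, led by *Mki67*. Stromal genes, all 9 detected and led by *Col1a1*, summed to 999, 1516 and 2046 CPM in WT and 886, 2220 and 764 CPM in *Slc37a2* KO libraries. All 12 interferon response genes (median log2 fold change −0.88), all 10 proliferation genes (median −0.26) and all 8 tested stromal genes (median −0.36) had log2 fold changes below 0, while each of these sums overlapped between genotypes. The part of these differences in the levels of BCL2 family genes was not tested.

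The *Bcl2a1* genes are also expressed in neutrophils, lymphocytes and mast cells, so markers of those cells were read beside them. Neutrophil genes summed to between 0.954 and 2.44 CPM, with *Cxcr2* the most abundant of the 7 of 10 genes with counts. Of them, *S100a8* had 0.833, 0.601 and 0.706 CPM in WT and 0.294, 0.488 and 0.318 CPM in *Slc37a2* KO libraries, without overlap (log2 fold change −0.93, SE 0.31). Over all tested genes, 379 (2.81%) had all *Slc37a2* KO libraries below WT. *S100a8* was named after its values were seen, at 8 to 34 counts per library. Both tested neutrophil genes, both tested mast cell genes and the 1 tested B lymphoid gene had log2 fold changes below 0. T and NK cell genes summed to at most 0.245 CPM, with counts for 2 of 7 and *Klrb1c* the most abundant. B lymphoid genes summed to between 2.30 and 7.46 CPM (5 of 7 with counts, led by *Ebf1*). Mast cell and basophil genes summed to between 1.31 and 3.76 CPM (2 of 5 with counts, led by *Mcpt8*). The defining markers *Ly6g*, *Elane*, *Cd3e*, *Pax5* and *Cpa3* were not among the genes with deposited counts. Dendritic cell genes summed to between 21.9 and 31.8 CPM (6 of 8 with counts), and 2 of the 3 tested had log2 fold changes above 0 (median 0.35). *Itgax*, the most abundant, had 14.7, 18.1 and 16.5 CPM in WT and 25.3, 14.7 and 22.7 CPM in *Slc37a2* KO libraries, with overlap (log2 fold change 0.35, SE 0.21). The part of all such cells in the levels of *Bcl2a1* genes was not tested. For NF-κB feedback and target genes, the sum of 10 genes ranged from 1276 to 1457 CPM, with 5 log2 fold changes above 0 and 5 below, and *Nfkbia*, which encodes an inhibitor of NF-κB, was the most abundant.

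The genes most like *Bcl2a1b* across the 6 libraries, among 11857 tested genes with a mean of at least 1 CPM, were *Wbp4* (Pearson r = 0.98, Spearman rho = 0.94), *Zfp653* (0.98 and 0.83), *Fkbp1b* (0.97 and 1.00), *Klhl26* (0.96 and 0.94) and *Pet100* (0.95 and 0.94). Their log2 fold changes ran from 0.05 for *Wbp4* to 0.21 for *Pet100*. Genotypes overlapped for *Pet100* and did not for the others, with *Slc37a2* KO higher. Nothing is read from these differences, since the genes were chosen by likeness to *Bcl2a1b*, whose own genotypes did not overlap. No other member of the BCL2 family was among these 5.

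The wider apoptosis pathway was read from 7 lists with 50 genes, of which 43 were tested. With edgeR's quasi-likelihood test, 0 of 43 had an adjusted p below 0.05 in either direction (adjusted p from 0.969 to 0.999), and 0 had an unadjusted p below 0.05, beside 96 of all 13483 tested genes (0.712%). The likelihood ratio test of edgeR called 0 of 43 at either threshold, beside 2 tested genes adjusted (0.0148%) and 62 unadjusted (0.46%). The Wald test of DESeq2 also called 0 of 43 at either threshold, beside 2 tested genes adjusted (0.0148%) and 69 unadjusted (0.512%). The log2 fold changes were above 0 for 21 genes and below 0 for 22, with a median of −0.00 beside −0.02 over all tested genes.

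Among other family members, *Bcl2l2*, which encodes the survival protein BCL-W, had 38.8, 40.2 and 45.0 CPM in WT and 50.9, 40.9 and 49.3 CPM in *Slc37a2* KO libraries. As for *Mcl1*, L078 kept the genotypes overlapping (log2 fold change 0.19, SE 0.11). Of 4 tested effector-like genes, *Bok* had the highest log2 fold change (0.28, SE 0.27) and *Bcl2l12* the lowest (−0.21, SE 0.22). *Bcl2l10*, a survival gene of oocytes, had 1 count over all libraries.

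Of 10 tested BH3-only and related genes, 7 had log2 fold changes above 0. *Pmaip1*, which encodes NOXA, an antagonist of MCL1, had 101, 127.6 and 126.7 CPM in WT and 169.6, 93.1 and 184 CPM in *Slc37a2* KO libraries. Its extremes were all in *Slc37a2* KO, with L078 lowest and L081 highest (log2 fold change 0.33, SE 0.26). *Bmf*, whose protein is held at the cytoskeleton in healthy cells, had 55.4, 52.0 and 30.4 CPM in WT and 27.5, 47.6 and 34.8 CPM in *Slc37a2* KO libraries. It followed the same libraries as *Bcl2l11*, with a log2 fold change of −0.32 (SE 0.28).

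Downstream of the pore, all 8 apoptosome and caspase genes were tested. *Cycs*, which encodes the cytochrome c released from mitochondria, had the highest log2 fold change of them (0.21, SE 0.17). *Diablo*, whose protein SMAC leaves mitochondria to block inhibitors of apoptosis, was the 1 pathway gene of 43 without overlap between genotypes, with *Slc37a2* KO lower (2.81% of all tested genes). It had 37.3, 35.0 and 36.9 CPM in WT and 33.5, 34.4 and 34.6 CPM in *Slc37a2* KO libraries, a narrow separation (log2 fold change −0.09, SE 0.06, adjusted p = 0.969 with edgeR's quasi-likelihood test). In the same list of 7 release factors and channels, *Endog*, a mitochondrial nuclease, had the highest log2 fold change (0.16, SE 0.13).

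Inhibitor of apoptosis genes, 6 of 6 tested, lay between −0.20 for *Birc5*, which is also in the proliferation list, and 0.06 for *Xiap*, the direct caspase inhibitor. Of 7 tested death receptor genes, *Fas* had the lowest log2 fold change (−0.36, SE 0.40), with 5.56, 4.45 and 2.63 CPM in WT and 1.98, 4.75 and 3.08 CPM in *Slc37a2* KO libraries. It too was highest in WT K090, WT L080 and *Slc37a2* KO L078. The adaptor gene *Fadd* was the highest of that list at 0.01 (SE 0.09).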

How the data were processed

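RNAseq was performed on 3 WT and 3 *Slc37a2* KO libraries on an Illumina NovaSeq. The authors deposited whole-number counts for 22601 genes, without normalization. The submitters' processing notes name bcl2fastq 2.20.0.422, edgeR 3.30.3 and build mm10, the assembly of GRCm38. Aligner, counting tool, annotation and strand setting were not given in the sources used here. Fold changes, mean levels, test statistics and p-values of the authors' own comparison were not used. Columns were assigned to genotypes by their headings, and 0 columns of other samples were present. No library duplicated another, since the most alike, K089 and L081, differed beyond counting noise (chi-square over degrees of freedom 6.72).

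Genotypes were compared by edgeR 4.0.16 in R 4.3.3, through filterByExpr at its defaults, TMM, glmQLFit and glmQLFTest. P-values were adjusted over 13483 genes by the Benjamini-Hochberg method. DESeq2 1.42.0 and the likelihood ratio test were alternatives. Each fit was first tested on simulated data, and the results of that step are not given here. For 3 against 3 libraries, 0.1 is the smallest two-sided p of an exact permutation test. SE values come from the fit. Correlations used log2 CPM with a prior count of 2.

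The members and lists were chosen with earlier results of these data known. Named genes were all members, *Slc37a2*, the highest and lowest log2 fold change of each pathway list, pathway genes without overlap, the 5 genes most correlated with *Bcl2a1b* and the most abundant gene of each marker list. A gene that this rule names is not reported here. *Ggnbp1*, *Bcl2l13*, *Bcl2a1c*, *Bcl2l10*, *Apaf1* and *S100a8* were named after their values were seen. *Gm29094* and *Gm45808*, without counts, were named after their exon overlaps were seen. Gene models and transcripts were from GENCODE M21 (GRCm38), promoter windows from RefSeq (GRCm38.p6), read with Python 3.11.15. Alternatives were DESeq2 size factors, upper quartile scaling, CPM without scaling factors, no filter, at least 1 CPM in 3 libraries, and each library left out in turn. Fold changes from library totals without scaling factors, and a fit with the letter of the animal number, were added after seeing the data.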

Additional observations from a re-analysis of the deposited data

How the results depend on the processing

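DESeq2 size factors, upper quartile scaling, other filters and other tests gave log2 fold changes from 0.29 to 0.32 for *Bcl2a1b* and from 0.27 to 0.30 for the summed *Bcl2a1* copies. Library totals without scaling factors, added after seeing the data, gave 0.24 and 0.23. No member changed sign under these alternatives. With single libraries left out, *Bcl2a1b* ran from 0.23 (without WT L080) to 0.40 (without WT L082), and the summed copies from 0.21 to 0.36. The sign turned for *Bcl2a1d* (−0.035 without L078, up to 0.42), *Bcl2l1* (0.0056 without L081, down to −0.31), *Bcl2l11* (0.0060 without WT K090 and 0.051 without K089, down to −0.29) and *Bid* (0.018 without K089, down to −0.18). The sign held for *Bcl2a1a* (0.035 without L078 to 0.31), *Bcl2* (0.051 without WT K090 to 0.27), *Mcl1* (0.18 to 0.30), *Bax* (−0.21 to −0.032 without K089) and *Bak1* (−0.089 to −0.0070 without L081). The cause was not tested.

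The number of members called was 0 under every alternative with an adjusted p and 1 at an unadjusted p below 0.05, beside 0.00724% to 0.0148% and 0.712% of all tested genes. Nothing is read from these counts, since this contrast chose the set. The number of members without overlap was 1 with DESeq2 or upper quartile factors, beside 3.96% and 3.98% of all tested genes, and 2 with CPM without scaling factors (4.62%), where *Mcl1* was added. With single libraries left out it ran from 1 without L081 (6.98% of all tested genes) to 5 without L078, where 41.6% of all tested genes did not overlap. Pathway genes called were 0 throughout, and their lowest adjusted p was 0.227, for *Bcl2l2* without L078 (edgeR quasi-likelihood test). Over all tested genes, 2732 (20.1%) had an unadjusted p below 0.05 without L078. That share ran from 0.232% to 1.98% when another single library was left out. Unadjusted counts of pathway genes with libraries left out are not given here.

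No paired analysis was possible because the columns carry animal numbers and not the replicate numbers of the sample titles. The animal numbers begin with K (1 WT and 1 *Slc37a2* KO library) or L (2 and 2), a letter that the sources used here do not explain. An edgeR fit with this letter beside genotype, added after seeing the data, gave 0.30 for *Bcl2a1b* and 0.28 for the summed copies, called 0 pathway genes (1 of all tested genes, 0.00742%), and changed no sign of a member. *Bcl2a1d*, with 31 to 99 counts per library, is the member most limited by depth.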
